A study of Rattus norvegicus with 24 samples.

Results

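The tibialis anterior (TA), the muscle of the shin that lifts the foot, was compared between 3 left limbs taken after nerve impulses had returned (recovery) and 3 left limbs labelled as taken during the block of the nerve (atrophy). These 6 limbs, of 24 sequenced, were picked by their condition labels alone, and the comparison asks which transcripts were switched on and off when impulses returned. All animals were male Fischer 344 rats, an inbred strain, aged 23 ± 1 months. Tetrodotoxin (TTX), which closes the sodium channels that carry action potentials along axons, was pumped onto the left common peroneal nerve, which serves the TA. Atrophy limbs came from animals 362, 367 and 372 after 6 to 7 days of TTX. Recovery limbs came from animals 369, 370 and 371, which received the same infusion and then spent 9 days without TTX once the pump had emptied. Right limbs received no TTX. Those of these 6 animals and of 3 animals that had a second infusion formed the control group (9 limbs), and the left limbs of those 3 animals entered the fit only for the estimate of spread.

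Both groups are different animals, each limb standing for 1 animal, and the recovery animals were 9 days further from surgery. The return of impulses therefore cannot be told apart from the time since surgery, or from differences between the animals, in the left limbs alone. The right limbs of the same animals were used to show how much the animals differed where no TTX was given. The silenced muscles were the dorsiflexors alone, and the animals went on walking with the calf muscles during the block. The RNA was that of whole muscle, in which fewer cells of a type and less RNA per cell cannot be told apart.

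A motor nerve controls the muscle it serves in part through the impulses it carries. In innervated fibres, the subunits of the acetylcholine receptor are transcribed in the few nuclei under the nerve ending, and electrical activity represses them elsewhere. When impulses cease, calcium no longer enters with each contraction, the repressors of the myogenic factor myogenin (Myog) are released, and Myog acts at E-boxes, short DNA elements, of receptor subunit genes and of ubiquitin ligase genes such as Trim63 (MuRF1) and Fbxo32 (atrogin-1), which tag muscle proteins for breakdown. Activity also sustains the genes of adult contraction and of energy supply through calcineurin, AMP-activated kinase and the coactivator PGC-1alpha.

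The promoters of genes at the start of that pathway are shown because it runs through E-boxes, and the receptor, Musk and Trim63 genes are its textbook examples. The sequences are those of RefSeq on the assembly GRCr8, the 250 bases before the annotated start, read 5′ to 3′ on the strand of the gene, with every E-box (CANNTG, which reads the same on both strands) in capitals. They lie at chr13:48297226-48297475 (plus strand) for Myog, chr3:78877354-78877603 (minus) for Chrna1, chr10:55015108-55015357 (minus) for Chrnb1, chr5:77853486-77853735 (plus) for Musk and chr5:151816986-151817235 (plus) for Trim63.
Myog: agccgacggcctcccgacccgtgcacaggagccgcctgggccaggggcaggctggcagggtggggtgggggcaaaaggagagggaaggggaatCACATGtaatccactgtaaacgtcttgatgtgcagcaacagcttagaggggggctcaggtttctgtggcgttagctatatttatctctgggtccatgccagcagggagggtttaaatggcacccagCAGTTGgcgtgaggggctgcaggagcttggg
Chrna1: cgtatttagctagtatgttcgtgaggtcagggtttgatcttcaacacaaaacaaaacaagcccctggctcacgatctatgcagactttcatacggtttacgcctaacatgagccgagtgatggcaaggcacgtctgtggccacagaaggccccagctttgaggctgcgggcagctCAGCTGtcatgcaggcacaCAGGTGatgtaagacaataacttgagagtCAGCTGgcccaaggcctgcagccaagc
Chrnb1: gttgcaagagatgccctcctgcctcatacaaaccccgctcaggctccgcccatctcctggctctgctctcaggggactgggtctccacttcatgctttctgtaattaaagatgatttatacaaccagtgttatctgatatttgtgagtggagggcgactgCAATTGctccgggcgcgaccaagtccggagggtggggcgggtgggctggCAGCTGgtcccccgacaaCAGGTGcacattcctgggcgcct
Musk: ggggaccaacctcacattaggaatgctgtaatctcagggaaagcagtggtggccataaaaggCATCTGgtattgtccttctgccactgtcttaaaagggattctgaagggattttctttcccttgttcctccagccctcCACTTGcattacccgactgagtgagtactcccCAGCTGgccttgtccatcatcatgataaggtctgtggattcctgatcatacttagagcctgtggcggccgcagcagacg
Trim63: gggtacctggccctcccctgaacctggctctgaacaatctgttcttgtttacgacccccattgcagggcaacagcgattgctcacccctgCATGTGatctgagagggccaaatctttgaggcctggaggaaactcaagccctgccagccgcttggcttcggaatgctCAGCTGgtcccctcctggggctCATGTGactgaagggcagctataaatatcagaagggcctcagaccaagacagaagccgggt
Myog, the myogenic factor itself, held 2 E-boxes in this stretch, and the other promoters held 3 each. An E-box of this loose form was common, being present in 64.1% of the 10411 promoters (300 bases, of which 50 follow the start) of tested symbols, in 66.9% of the 616 promoters of symbols higher in recovery and in 64.9% of the 533 of symbols lower. The form CAGCTG, which is contained in the loose form, was found in 16.8% of all promoters, and in 6 of 12 promoters of the endplate list. A match describes these letters only and shows no binding.

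Levels are CPM (counts of a gene among 1000000 counts) rescaled per limb by the median of ratios, and differences are recovery minus atrophy on the log2(rescaled CPM + 1) scale with their standard error, which understates the change of low genes. Where 3 values are given for a group, the atrophy limbs stand in the order 362, 367, 372 and the recovery limbs in the order 369, 370, 371. The depth inferred from the steps between low values, in M reads (1000000 reads), was 19.8 to 24.4 in the recovery limbs and 26 to 30.7 in the atrophy limbs, so depth moved with the groups, and its part in the results was not tested. A single read was worth at most 0.053 CPM. The left limb of animal 367 stood apart from the other atrophy limbs, with a score of 1.7 on the first principal component against 48.5 and 44.6, while the recovery limbs lay between -28.4 and -4.5. Several disuse genes in that limb stood at the level of the animal's own right limb, with Chrna1 at 68.9 against 67.7, Ache at 31.6 against 33.2 and Myh4 at 53780 against 51190. Others were above it, with Myog at 185 against 67.4 and Trim63 at 909 against 396. How far the block had acted in that limb was not tested. The right limb of animal 372 stood apart from the other right limbs, at 10.5 against -41 to -7.2. The 12 markers tested for skeletal muscle fibres summed to at least 75000 rescaled CPM in each of the 6 left limbs, and 0 of them were at 0.

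Of 14031 rows tested, 1489 (10.6%) passed, with 818 higher (5.83%) and 671 lower (4.78%) in recovery than in atrophy. A row passed with a fold of 1.2 or more and a p of 0.05 or less in limma, adjusted over all rows by the Benjamini-Hochberg method. At least 2-fold differences were reached by 496 of the rows higher and 288 of those lower, and at least 4-fold differences by 73 and 45. The 3 and 3 limbs did not overlap in 1410 of the 1489 passing rows, and in 30.5% of all rows tested. The balance of directions rested on the rescaling, as the share of passing rows that were higher was 54.9% with it and 18.7% on CPM as deposited (469 higher, 2036 lower), where the median difference of all rows was -0.19 instead of 0.01. Of the rows that were higher, the recovery mean lay above the range of the 9 right limbs in 480 and within it in 335, whereas the atrophy mean lay below that range in 275 and within it in 534. Of the rows that were lower, the recovery mean lay below the right-limb range in 386, and the atrophy mean lay above it in 304. All these rows were picked by the difference between both left groups. The shares over all rows were not counted, so nothing is read from these counts. Against the right limbs, 9.69% of rows passed in atrophy (4.53% higher, 5.16% lower) and 12.1% in recovery (6.28% higher, 5.82% lower).

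**Figure D1:**
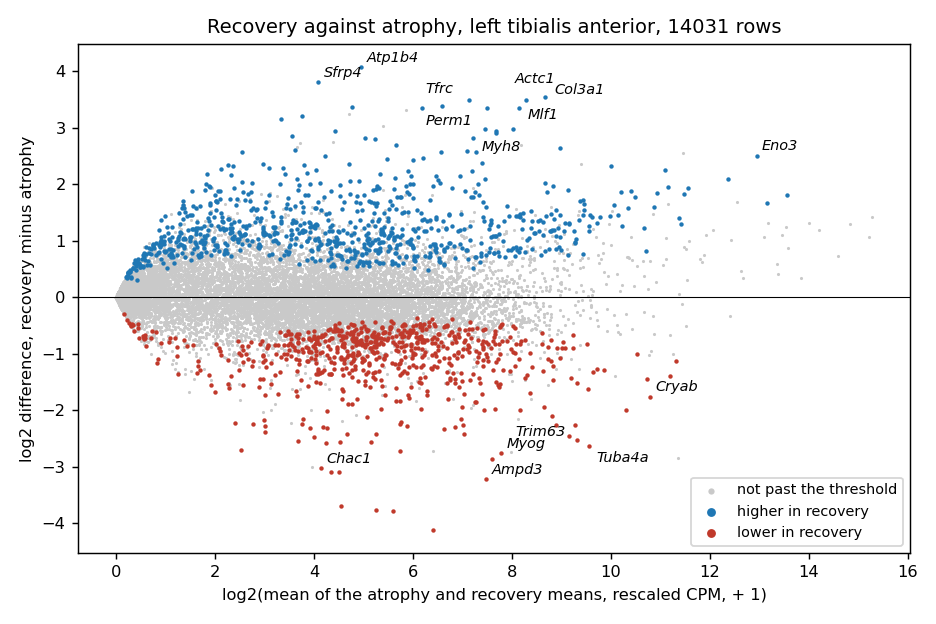
Log2 difference between recovery and atrophy left limbs (vertical axis) against the log2 of the mean level of both groups in rescaled CPM plus 1 (horizontal axis), 1 point per row tested (14031 rows). Blue points (818 rows) passed as higher in recovery and red points (671 rows) as lower, and Atp1b4 lies highest of the labelled genes at 4.07 and Ampd3 lowest at -3.21.

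The right limbs, which never received TTX, also differed between the recovery and the atrophy animals, with 120 rows passing (0.855%), 60 higher and 60 lower. Without the right limb of animal 372, 6 rows passed, while 1531 had an unadjusted p under 0.05 against 2217 with it. Of the genes named below whose right limbs passed, 0 passed without that limb. With the animal as a block, a fit that compares the left minus right differences of the 2 groups of animals, 0 rows passed as higher and 2 as lower (limma), namely Mical2 and Tuba8, and 1122 rows had an unadjusted p under 0.05. Of the 1489 passing rows, 1484 kept their sign in that fit and 521 kept it with an unadjusted p under 0.05, and the median of the blocked over the unblocked difference was 0.57. Of 100 passing genes followed individually, 98 lost the call with the block, with adjusted p-values (limma) between 0.135 and 0.947, and this holds for every passing gene below except Mical2 and Tuba8. The blocked fit had 6 residual degrees of freedom (independent values left to estimate the spread) against 14 without the block. The part of this in the lost calls was not tested. The blocked difference is given beside the leading genes. With the animal as a random block instead (limb correlation 0.15), list counts fell for oxidative phosphorylation, from 23 to 7 higher, and the proteasome, from 6 to 1 lower. They fell from 5 to 2 higher for PGC-1 regulators, from 11 to 7 higher for the sarcomere, from 9 to 5 lower both for atrogenes and for ribosomal proteins, from 7 to 4 higher for the cytoskeleton and from 3 to 0 lower for metallothioneins. Of the lists with 3 calls in a direction, 1 was left for myogenic genes, cholesterol synthesis and heat shock genes (lower), the ATF4 response (higher) and channels (both directions). When each of the 6 animals was left out in turn, all 100 kept their sign and 25 kept the call in all 6 omissions, but 29 were called without animal 369 and 32 without animal 370. In the text, "held" means that a gene was called in all 6 omissions, and the animals whose omission ended a call are otherwise named.

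The response of the neuromuscular junction was mixed. Of 16 genes of the acetylcholine receptor and the endplate, 3 rose, 2 fell and 11 did not pass, with a median difference of 0.09 (0.01 over all rows). Chrnb1, the beta subunit of the receptor, stood at 179, 95.4 and 149 rescaled CPM in atrophy and at 73.4, 74.2 and 84.9 in recovery. The groups did not overlap and the recovery limbs lay inside the right-limb range of 63.6 to 104, a fall of 0.81 ± 0.20 on the log2 scale (adjusted p = 0.018, limma, blocked -0.71). Rapsn, the scaffold that clusters the receptor, fell by 0.68 ± 0.16, from 23.9 to 28.8 in atrophy to 15.9 to 16.7 in recovery, below every right limb (18.9 to 29.8). The alpha subunit gene Chrna1 was at 722, 68.9 and 339 in atrophy and at 87.4, 45.9 and 246 in recovery (-1.35 ± 0.72, adjusted p = 0.23, limma, blocked -0.36 but 0.05 without animal 372). In both groups animal 367 or 371 broke the order, so the limbs overlapped, and the delta subunit gene Chrnd had nearly the same pattern (-1.35 ± 0.70, adjusted p = 0.22), with a blocked difference of 0.07 (0.30 without animal 372). Musk, the receptor kinase that organises the endplate, was low throughout, at 6.04, 1.25 and 5.43 against 1.34, 1.2 and 4.27. Chrne, the adult epsilon subunit, was at 18.5, 9.65 and 7.76 against 22.1, 15.7 and 25.3 (0.83 ± 0.27, adjusted p = 0.057).

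The genes that rose at the endplate were Ache, Etv5 and Ntn4. Ache, which encodes the enzyme that clears acetylcholine, stood at 2.38, 31.6 and 2.56 in atrophy and at 52.9, 54.7 and 45.4 in recovery, where the right limbs had a median of 75.8. The limb of animal 367 was high among the atrophy limbs, the groups did not overlap, and the rise was 2.82 ± 0.77 (adjusted p = 0.029, blocked 1.44). Etv5, an ETS factor of synaptic nuclei, rose by 1.36 ± 0.26 and held, from 6.89 to 11.6 up to 22.3 to 30.6. Leaving out animal 362, 369, 370, 371 or 372 ended the call of Ache (log2 differences of 2.27 to 3.90 over the omissions), and omitting 362, 369, 370 or 372 that of Chrnb1 (-1.07 to -0.62), while Rapsn was lost without 362, 369 or 370 (-0.75 to -0.62).

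Of 29 regulators that respond to activity 2 were higher and 3 lower, with a median of -0.21 (2 higher and 6 lower on CPM as deposited). Rcan1, a calcineurin inhibitor whose transcription calcineurin itself drives, was at 462, 246 and 677 rescaled CPM in atrophy and at 99.8, 101 and 120 in recovery, against 91.6 to 168 in the right limbs. All recovery limbs lay below all atrophy limbs and at the level of the right limbs (-1.99 ± 0.34, adjusted p = 0.0057, blocked -1.5). Btg2, an antiproliferative immediate early gene, fell by 2.33 ± 0.47 (adjusted p = 0.0096, blocked -1.45), and both held. Nr4a1, an orphan nuclear receptor induced by contraction, rose from 13.3, 91.4 and 19.2 to 132, 159 and 106 (2.14 ± 0.52, adjusted p = 0.019, blocked 1.41), and Nfatc1, the calcineurin-responsive factor, rose by 0.76 ± 0.23 (adjusted p = 0.046). In both genes the atrophy limb of animal 367 was nearest to the recovery limbs. Omitting 362, 369, 370 or 372 ended the call of Nr4a1 (1.61 to 2.95), and Nfatc1 was called only without 367 (0.62 to 0.96).

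Among 18 myogenic and developmental genes, 3 rose and 3 fell, with a median of -0.72 (-0.35 between the right limbs, -0.10 blocked), and 3 were higher and 6 lower on CPM as deposited. Myog (chr13:45745455-45748045 on rn7, the build of the table) stood at 327, 185 and 616 rescaled CPM in atrophy and at 37.1, 24.8 and 123 in recovery. The groups did not overlap, and the recovery limbs lay within the right-limb range of 21.7 to 126, a 6.76-fold fall (-2.76 ± 0.62, adjusted p = 0.014, blocked -1.49). Runx1, a factor that sustains denervated fibres, went from 65.8, 18.7 and 77.9 to 8.71, 5.36 and 19.4 (-2.12 ± 0.64, adjusted p = 0.043), with the atrophy limb of 367 just below the highest recovery limb. Mymk, the fusion protein myomaker, was at 92.6, 6.59 and 104 against 11, 6.60 and 21.4 (-1.73 ± 0.95, adjusted p = 0.25, limma), so that animal 367 alone among the atrophy limbs lay at the recovery level. Its blocked difference was -0.08, and 0.49 without animal 372. Leaving out 369 or 370 ended the call of Myog (-3.42 to -2.29), and 362, 369, 370 or 372 that of Runx1 (-2.75 to -1.74).

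The developmental isoforms Myh8, Actc1 and Myl4 of the contractile proteins rose beyond the right limbs. Myh8, the perinatal myosin heavy chain (chr10:51963510-51993104 on rn7), stood at 42.2, 12.5 and 76.1 in atrophy and at 284, 230 and 237 in recovery, and the right limbs spanned 11.1 to 27.9. Every recovery limb exceeded every other limb compared (2.81 ± 0.45, adjusted p = 0.0043), and the right limbs of both sets of animals were alike (0.05), so the blocked difference was 2.76. Actc1, the cardiac and fetal actin, rose from 144, 13.2 and 50.7 to 601, 685 and 370 (3.50 ± 0.70, adjusted p = 0.0095, blocked 2.33), and Myl4, the embryonic and atrial light chain, from 13.6, 14.8 and 14.3 to 55.0, 45.3 and 69.8 (1.90 ± 0.26, adjusted p = 0.0029, blocked 1.32). All 3 genes held and all 3 were above every right limb in recovery. Myh3, the embryonic heavy chain, was at 199, 8.83 and 144 against 107, 179 and 242 (1.35 ± 0.90, adjusted p = 0.35), the groups overlapping, and its difference was -0.02 without animal 367. Mlf1 rose from 32.7, 219 and 12.0 to 536, 529 and 350 (3.34 ± 0.70, adjusted p = 0.011, blocked 2.75), a call lost without 369 (2.43 to 4.47 over the omissions).

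**Figure D2:**
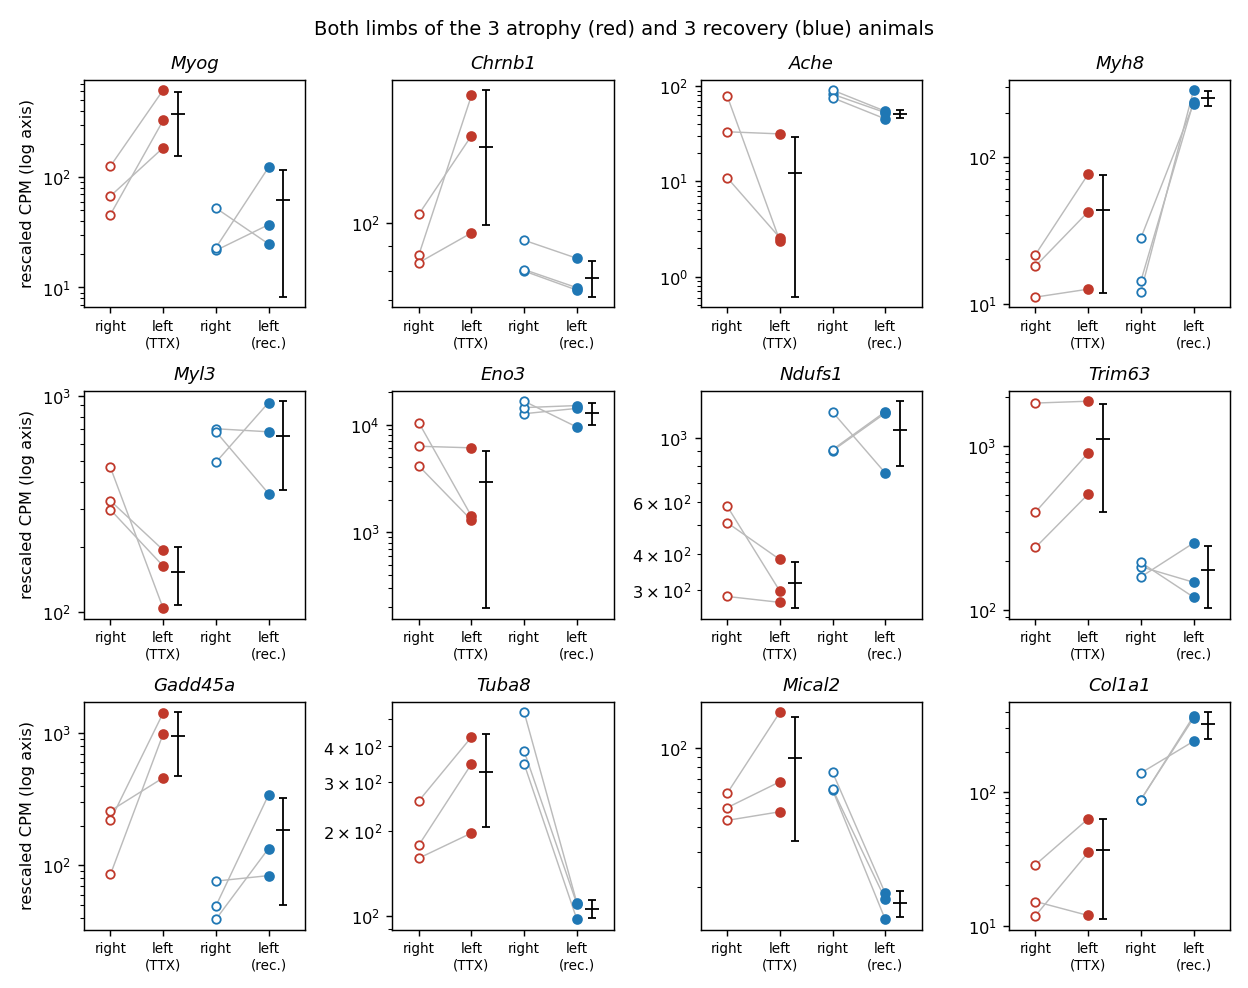
Levels of 12 genes in rescaled CPM (logarithmic vertical axes, a scale for each gene) in the right (open) and left (filled) limbs of the 3 atrophy animals (red) and the 3 recovery animals (blue), grey lines joining the limbs of an animal; black bars give mean ± SD of the 3 left limbs, the lower bar of Ache in atrophy being shortened because its SD exceeds its mean. Myh8 lies between 230 and 284 in the recovery left limbs and at 27.9 or below in all right limbs, Tuba8 and Mical2 rise from right to left in atrophy and fall in recovery animals, and Col1a1 is higher in recovery animals in both limbs.

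Of 37 adult sarcomere genes, 11 rose, 0 fell and 26 did not pass (10 higher and 2 lower on CPM as deposited, 0 with the block), with a median of 1.07 (0.44 between the right limbs, 0.23 there without the right limb of animal 372, and 0.67 blocked), and their summed level was 114100, 231600 and 122500 rescaled CPM in atrophy and 303500, 344600 and 274100 in recovery. The right limbs summed to 215600 to 385400, so 2 of the atrophy limbs lay below them and animal 367 inside. Without animal 362, 369 or 370, 3 of them were called. Myl3, the slow essential light chain, went from 104, 193 and 163 to 680, 927 and 353 (2.02 ± 0.35, adjusted p = 0.0060, blocked 1.23), Ldb3, which ties alpha-actinin to the Z-disc, from 471, 724 and 342 to 1577, 2442 and 1474 (1.87 ± 0.36, adjusted p = 0.0080, blocked 1.08), and both held. Myl2, the slow regulatory light chain, rose by 1.27 ± 0.31 (adjusted p = 0.019), Mylpf, its fast counterpart, by 1.81 ± 0.57 (adjusted p = 0.048), and Mybpc2, the fast myosin-binding protein C, by 2.09 ± 0.57 (adjusted p = 0.029). Their groups did not overlap in any of these cases, but the call of Myl2 ended without 369 or 370 (1.04 to 1.56), that of Mybpc2 also without 362 or 372 (1.47 to 2.84), and that of Mylpf in every omission but 367 (1.58 to 2.05).

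The myosin heavy chains of adult fibres did not pass. Myh4 (type IIB) was at 12400, 53780 and 11940 in atrophy and at 55720, 52350 and 53300 in recovery (1.43 ± 1.00, adjusted p = 0.37), the atrophy limb of animal 367 lying among the recovery limbs. Myh1 (type IIX) had 11900, 49920 and 19840 against 36800, 63850 and 46730 (1.07 ± 0.88, adjusted p = 0.46), and Myh2 (type IIA) 6960, 1839 and 8681 against 6384, 9495 and 4896 (0.47 ± 0.52, adjusted p = 0.60). The direction of Myh1 turned to -0.07 with quantile normalization, and that of Myh2 to -0.45 with it and to -0.52 with the block (-0.25 without animal 372). Myh7 (slow) was at 236, 754 and 547 against 873, 1423 and 968, groups that did not overlap (1.21 ± 0.42, adjusted p = 0.068, blocked 1.19).

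Of 33 genes of glycolysis and glycogen, 14 rose and 0 fell, with a median of 1.25 (0.52 between the right limbs, 0.58 blocked), of 44 genes of the TCA cycle and fatty acid oxidation 23 rose and 0 fell (0.99, 0.57 and 0.39), and of 77 genes of oxidative phosphorylation 23 rose and 0 fell (0.91, 0.68 and 0.26). All 77 had a positive difference, whereas 5 of the 33 and 6 of the 44 had a negative one. On CPM as deposited, 1 gene of each of these 2 lists was called lower. The oxidative phosphorylation genes had a higher sum in recovery. Their summed level was 17430, 25070 and 16950 rescaled CPM in atrophy and 48010, 44790 and 29640 in recovery, and the right limbs ran from 18290 to 47510. Recovery and atrophy limbs did not overlap, yet the right limbs of the recovery animals (38840 to 47510) also summed above those of the atrophy animals (18290 to 31280). Without animal 369 or 370, 0 genes of oxidative phosphorylation and 0 of the TCA cycle list were called, and 1 of the glycolysis list in either case. Without animal 362, the counts were 4, 2 and 2 in the same order, and without animal 372 they were 6, 11 and 6.

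Eno3, the muscle enolase, stood at 1406, 6073 and 1293 rescaled CPM in atrophy and at 14120, 15000 and 9469 in recovery, against 4123 to 16460 in the right limbs. The groups did not overlap, with animal 367 the highest of the atrophy limbs (2.50 ± 0.59, adjusted p = 0.017, blocked 1.35). Pkm, the last enzyme of glycolysis, rose by 2.26 ± 0.54 (adjusted p = 0.017). Fbp2, the muscle form of fructose bisphosphatase, had 3.40, 83.2 and 2.05 against 140, 142 and 59.0 (3.35 ± 0.93, adjusted p = 0.031), where animal 367 exceeded the lowest recovery limb. Calls of Eno3 and Fbp2 ended without 362, 369, 370 or 372 (2.11 to 3.22 and 2.46 to 4.86) and that of Pkm without 362, 369 or 370 (1.81 to 2.90).

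Ndufs1, the largest subunit of complex I, was at 298, 382 and 272 in atrophy and at 1212, 1226 and 756 in recovery (1.73 ± 0.39, adjusted p = 0.014). The groups did not overlap, but the right limbs of the same animals differed by 1.19, which itself passed (limma), and the blocked difference was 0.54. Sdhc of complex II rose by 1.43 ± 0.32 (adjusted p = 0.014, blocked 0.64), cytochrome c (Cycs) by 1.46 ± 0.44 (adjusted p = 0.044, blocked 0.79), Idh2, the mitochondrial isocitrate dehydrogenase, by 1.65 ± 0.36 (adjusted p = 0.013, blocked 0.68), and Hadh, an enzyme of beta oxidation, by 2.00 ± 0.44 (adjusted p = 0.014, blocked 1.06). Of 26 regulators around PGC-1, 5 rose and 0 fell, with a median of 0.29 that became -0.07 on CPM as deposited. There 1 was higher, as also without animal 362, and without 369 or 370 0 were. Perm1, a muscle regulator downstream of PGC-1, went from 14.9, 83.9 and 33.2 to 325, 434 and 159 (2.98 ± 0.65, adjusted p = 0.013, blocked 1.44), and Ppargc1a, which encodes PGC-1alpha, from 1.05, 2.31 and 3.12 to 7.42, 6.75 and 3.65 (1.15 ± 0.36, adjusted p = 0.048, blocked 0.39 but 0.85 without animal 372). In both the recovery limb of animal 371 was the lowest of its group. All of these genes lost the call without 369 and without 370 (Ndufs1 1.61 to 1.95, Perm1 2.39 to 3.60, Ppargc1a 0.86 to 1.42), Idh2, Hadh, Perm1, Cycs and Ppargc1a also without 362, Cycs also without 372, and Ppargc1a also without 367.

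Of 31 atrogenes and related genes, 9 fell and 1 rose, with a median of -0.62, but the right limbs of the same animals had a median of -0.71 (-0.49 without the right limb of animal 372) and the blocked median was -0.12 (-0.21 without animal 372). There were 15 lower and 0 higher on CPM as deposited (median -0.97). Without animal 369 or 370, 0 were called. Trim63 was at 509, 909 and 1881 rescaled CPM in atrophy and at 148, 120 and 256 in recovery (-2.52 ± 0.69, adjusted p = 0.029, blocked -0.88). The groups did not overlap, and the right limb of animal 372 was at 1833, close to its own left limb and above the next right limb at 396. Fbxo32 went from 27.8, 37.0 and 48.2 to 4.41, 3.06 and 11.1 (-2.55 ± 0.77, adjusted p = 0.043), while its right limbs stood at 11.2, 25.7 and 88.0 in the atrophy animals and at 6.93, 6.41 and 2.88 in the recovery animals, for a blocked difference of -0.22. Ctsl, a lysosomal protease, fell by 2.26 ± 0.60 (adjusted p = 0.026) and Map1lc3b, the autophagosome protein LC3B, by 1.38 ± 0.36 (adjusted p = 0.024). In these 2 genes the right limbs differed as well and passed (-1.97 and -1.15), and the blocked differences were -0.29 and -0.23. Without the right limb of animal 372 neither passed (-1.64 and -0.81, adjusted p = 0.135 and 0.152, limma), and without the animal the blocked differences were -0.35 and -0.45, while that of Fbxo32 was -0.80. Calls of Trim63 and Map1lc3b ended without 369 or 370 (-2.98 to -2.03 and -1.53 to -1.26), that of Ctsl also without 362 or 372 (-2.63 to -1.92), and Fbxo32 was called only without 371 (-3.02 to -2.22).

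Of 42 proteasome genes, 6 fell and 0 rose, with a median of -0.50 (-0.36 between the right limbs), and 40 had a negative difference. As many as 27 were lower on CPM as deposited (median -0.86). Without the right limb of animal 372 the right-limb median was -0.16, and without the animal the blocked median was -0.43 against -0.16 with it. Psmd8, a lid subunit, went from 144, 137 and 183 to 53.1, 56.6 and 60.6 (-1.42 ± 0.38, adjusted p = 0.027, blocked -0.69 but -1.09 without animal 372), Psmd2, of the base, fell by 1.09 ± 0.33 (adjusted p = 0.045) and Psma7, of the core, by 0.90 ± 0.27 (adjusted p = 0.038). Every recovery limb of the 3 genes lay below every right limb except for Psmd2, whose right limbs began at 295. The right limb of animal 372 had the highest level of all 3, at 230, 1023 and 368. Without animal 362, 369 or 370, 0 proteasome genes were called, and Psmd8 was also lost without 362 (-1.51 to -1.29), Psmd2 without 362 or 367 (-1.24 to -0.98) and Psma7 without 362, 367 or 371 (-0.95 to -0.85).

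Single genes of the stress lists fell. Gadd45a, which drives fibre atrophy downstream of ATF4, was at 983, 458 and 1416 rescaled CPM in atrophy and at 134, 83.7 and 341 in recovery, against 39.1 to 258 in the right limbs. Atrophy and recovery limbs did not overlap and the limb of 371 remained the highest of the recovery limbs (-2.45 ± 0.65, adjusted p = 0.027, blocked -0.79). Cdkn1a, the cell cycle inhibitor p21, had 868, 191 and 488 against 112, 61.2 and 272 (-1.80 ± 0.63, adjusted p = 0.069). Tnfrsf12a, the receptor of TWEAK, fell by 2.55 ± 0.64 (adjusted p = 0.021, blocked -0.82). Of 19 genes of the p53 and Gadd45 list 3 fell and 0 rose (median -0.30), and of 28 of the ATF4 response 4 fell and 3 rose (-0.05). On CPM as deposited 5 were lower in the former list, and 1 was higher and 7 lower in the latter, where 0 were called without animal 369. In the ATF4 list, Slc38a2 and Slc3a2, carriers of amino acids, fell by 1.30 ± 0.31 and 1.27 ± 0.27 (adjusted p = 0.017 and 0.012), and Ddit3, the factor CHOP, rose by 1.69 ± 0.49 (adjusted p = 0.036). Slc3a2 stood at 75.3, 131 and 149 against 46.1, 46.0 and 47.3 with right limbs alike in both sets of animals (0.02), so its blocked difference was -1.29. Chac1, a glutathione-degrading enzyme of the same response, went from 7.2, 72.0 and 15.3 to 2.40, 0.383 and 2.88 (-3.02 ± 0.90, adjusted p = 0.041), but its right limbs differed by -2.83, which passed, and the blocked difference was -0.19 (-0.68 without animal 372).

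Sat1, the enzyme that marks polyamines for removal, fell from 224, 142 and 245 to 38.0, 33.0 and 68.2 (-2.14 ± 0.59, adjusted p = 0.030), yet its right limbs also passed (-1.85, blocked -0.30 but -0.45 without animal 372), and Srm, spermidine synthase, fell by 1.03 ± 0.25 (adjusted p = 0.020, blocked -0.56). Of 14 polyamine genes these 2 fell and 1 rose (median -0.05). Of 12 genes of metallothioneins and zinc transport, 3 fell and 0 rose (-0.12). Mt2A and Mt1, which bind zinc, fell by 2.72 ± 0.83 and 2.41 ± 0.68 (adjusted p = 0.044 and 0.034, limma), and Slc30a2, a zinc exporter, went from 64.4, 41.0 and 162 to 4.22, 2.26 and 9.24 (-3.78 ± 1.05, adjusted p = 0.031, blocked -0.56 but -1.19 without animal 372). For Mt2A the right limbs differed by -2.27, which did not pass, and the blocked difference was -0.45 (-0.37 without animal 372). The right limb of animal 372 held 171 of Slc30a2, at the level of its left limb. Ampd3, an AMP deaminase that rises in atrophying muscle, fell 9.27-fold, from 233, 177 and 543 to 22, 16.1 and 71.6 (-3.21 ± 0.82, adjusted p = 0.023, blocked -0.95). No limb of either group reached the other in any of these genes. Omitting animal 369 ended the call of every gene named among the stress, polyamine and zinc genes and of Ampd3, and omitting 370 did so except for Slc3a2 and Srm. Of these, Gadd45a ranged from -3.01 to -2.0, Slc3a2 from -1.57 to -1.08, Sat1 from -2.46 to -1.94, Slc30a2 from -4.22 to -3.23 and Ampd3 from -3.84 to -2.74 over the omissions. Calls were also lost without 362 for Gadd45a, Sat1, Slc30a2, Ampd3, Mt1 and Mt2A, and without 372 for Gadd45a, Tnfrsf12a, Slc3a2, Ddit3, Chac1, Sat1, Srm, Mt1 and Mt2A. Ddit3 and Chac1 also lost the call without 367, and Srm without 371.

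Of 24 channels and pumps of the fibre membrane, 3 were higher and 3 lower (median 0.09). On CPM as deposited 1 was higher and 5 lower (median -0.27), and without animal 369 or 370 none was called. Kcnn3, a calcium-activated potassium channel of inactive fibres, fell by 1.55 ± 0.38 (adjusted p = 0.019, blocked -0.92). Kcna7, a potassium channel of striated muscle, went from 22.2, 165 and 16.2 to 162, 215 and 159, so that animal 367 lay among the recovery limbs (2.14 ± 0.52, adjusted p = 0.018, blocked 2.18). Calls of Kcnn3 and Kcna7 ended without 362, 369, 370 or 372 (-2.01 to -1.30 and 1.52 to 3.15).

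Atp1b4, a member of the sodium pump beta family that in mammals resides at the inner nuclear membrane of muscle, had the largest rise of the genes named here. It stood at 2.77, 6.40 and 0.410 in atrophy and at 58.4, 66.4 and 45.7 in recovery, and the right limbs spanned 3.47 to 23.9. Every recovery limb was above, and 2 of the atrophy limbs below, every right limb (4.07 ± 0.56, adjusted p = 0.0029, blocked 3.16), and the call held. Tfrc, the transferrin receptor, rose from 17.8, 24.6 and 18 to 328, 335 and 115 (3.48 ± 0.62, adjusted p = 0.0064, blocked 2.12) and Sh3kbp1, an adaptor of receptor endocytosis, from 15.1, 30.1 and 7.56 to 176, 205 and 134 (3.39 ± 0.57, adjusted p = 0.0049, blocked 2.19). Both held, and in Sh3kbp1 all recovery limbs exceeded the right-limb maximum of 94.7, whereas in Tfrc the limb of 371 lay below the maximum of 147. Further genes among the 12 largest rises were Sfrp4, a secreted Wnt antagonist (3.80 ± 0.56, adjusted p = 0.0029, blocked 2.75), Neu2, the cytosolic sialidase (3.21 ± 0.74, adjusted p = 0.015, blocked 0.87), and Nrep (3.15 ± 0.71, adjusted p = 0.014, blocked 1.05). Among the 12 largest falls were Hip1r, an endocytic actin linker (-3.09 ± 0.70, adjusted p = 0.014, blocked -2.19), Dok3, an adaptor of immune signalling (-3.09 ± 0.79, adjusted p = 0.023, blocked -1.63), and Wdr62, a spindle pole protein (-2.57 ± 0.58, adjusted p = 0.014, blocked -1.85). Sfrp4 held, while Neu2 was lost without 362, 369 or 370 (2.81 to 3.85), Nrep without 370 (2.85 to 3.63), Hip1r without 369 (-3.76 to -2.24), Dok3 without 362, 369, 370 or 372 (-3.91 to -2.44) and Wdr62 without 369 or 370 (-3.24 to -1.88).

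Both genes that passed with the block belong to the cytoskeleton. Of 31 genes of cytoskeleton and tubulin, 9 fell and 7 rose, with a median of -0.38 against 0.06 between the right limbs (0.16 without that of animal 372) and -0.03 blocked. The counts were 3 higher and 11 lower on CPM as deposited, and without animal 362 they were 7 and 3. Tuba8, an alpha tubulin of striated muscle and other tissues (chr4:154440130-154456919 on rn7), stood at 432, 197 and 347 rescaled CPM in atrophy and at 97.2, 110 and 111 in recovery. The limbs of both groups stayed apart (-1.53 ± 0.38, adjusted p = 0.020), and the right limbs differed the other way, at 256, 160 and 178 in the atrophy animals and at 347, 384 and 529 in the recovery animals. In each atrophy animal the left limb was above the right, by 0.30 to 0.95 on the log2 scale, and in each recovery animal below it, by 1.79 to 2.24, so the blocked difference was -2.62 (adjusted p = 0.033). Mical2, an oxidase that breaks down actin filaments (chr1:166391019-166468253 on rn7), went from 47.8, 67.7 and 152 to 18.5, 13.7 and 17.3, with all recovery limbs below the right-limb minimum of 43.2 (-2.20 ± 0.33, adjusted p = 0.0035, blocked -2.59, adjusted p = 0.033). The unblocked call of Tuba8 ended without 362, 369, 370 or 372 (-1.86 to -1.29), whereas Mical2 held.

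Other tubulins fell with them. Tuba4a, an alpha tubulin abundant in muscle, went from 1591, 760 and 1525 to 155, 148 and 339 (-2.62 ± 0.49, adjusted p = 0.0072, blocked -2.83), and Tubb4b from 391, 326 and 248 to 77.4, 64.4 and 102 (-1.97 ± 0.31, adjusted p = 0.0042, blocked -2.02). Both held, and the Tubb4b recovery limbs lay below every right limb (124 to 370). Tubb6, a beta tubulin raised in regenerating and dystrophic muscle, had 445, 201 and 359 against 41.2, 22.9 and 84.0 (-2.85 ± 0.73, adjusted p = 0.023, blocked -1.03), at the level of the right limbs (8.37 to 122). Krt8, a keratin of the costamere, fell by 2.29 ± 0.66 (adjusted p = 0.037, blocked -0.94). Among the genes that rose was Nes, the intermediate filament nestin of junctional and regenerating fibre regions, from 32.1, 21 and 30 to 64.8, 99.5 and 133 (1.76 ± 0.28, adjusted p = 0.0042, blocked 1.07), which held and exceeded every right limb (31.8 to 58.4). The call of Tubb6 ended without 362, 369, 370 or 372 (-3.33 to -2.41) and that of Krt8 without 362, 370, 371 or 372 (-2.98 to -1.67).

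Of 18 genes of mechanosensing and ankyrin repeat proteins, which respond to strain, 5 fell and 0 rose, with a median of -1.07 (-0.38 between the right limbs, -0.05 blocked), and 8 were lower on CPM as deposited. The right-limb and blocked medians rested on animal 372, without which they were -0.04 and -0.28. Without animal 369 or 370, 1 gene of the list was called lower, without 362 2, and without 372 3. Without animal 367, 9 were lower and 2 higher. Csrp3, the muscle LIM protein of the Z-disc, was at 1183, 279 and 1731 in atrophy and at 134, 157 and 243 in recovery, against 67.3 to 413 in the right limbs (-2.26 ± 0.64, adjusted p = 0.032, blocked -1.25). Ankrd1, an ankyrin repeat protein of the titin filament, had 7292, 1114 and 5508 against 384, 283 and 1114, where the lowest atrophy and the highest recovery limb were alike to the digits shown (-2.84 ± 0.99, adjusted p = 0.071, blocked -0.02 but -0.16 without animal 372). Cryab, the small heat shock protein alphaB-crystallin, fell from 3599, 1658 and 3015 to 794, 679 and 866, all below every right limb (921 to 1782), and held (-1.75 ± 0.36, adjusted p = 0.011, blocked -1.58). Of 35 heat shock and chaperone genes 3 rose and 3 fell (median -0.27), but 1 was higher and 16 were lower on CPM as deposited. Hspb6 rose from 722, 810 and 974 to 2917, 4203 and 2162 and held (1.84 ± 0.31, adjusted p = 0.0046, blocked 1.37), and Hspb8 fell by 1.0 ± 0.30 (adjusted p = 0.044, blocked -0.73). So among small heat shock proteins Hspb6 lay above and Cryab below every right limb in recovery. The calls of Csrp3 and Hspb8 ended without 362, 369, 370 or 372 (-3.05 to -1.73 and -1.39 to -0.74).

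In calcium handling, 2 of 28 genes rose and 2 fell (median 0.41, and 0.09 blocked). On CPM as deposited 1 was higher and 5 lower (median 0.06), and without animal 367 there were 9 higher and 2 lower. Casq1, the fast calsequestrin that stores calcium in the sarcoplasmic reticulum, rose by 1.93 ± 0.49 (adjusted p = 0.023, blocked 0.75), and Casq2, the slow and cardiac form, from 85.4, 18 and 54.8 to 114, 155 and 98.3, above every right limb (1.43 ± 0.41, adjusted p = 0.036, blocked 1.36). Jsrp1, a junctional protein that binds the calcium channel, fell from 331, 391 and 441 to 175, 175 and 188, below every right limb (315 to 505), and held (-1.10 ± 0.21, adjusted p = 0.0079, blocked -0.96). Casq1 lost the call without 362, 369 or 370 (1.64 to 2.26), and Casq2 in every omission but 362 (0.80 to 1.90).

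Of 40 collagens and matrix genes 17 rose, 1 fell and 22 did not pass, with a median of 1.02, and of 13 fibro-adipogenic markers, which mark the connective tissue progenitors of muscle, 10 rose and 0 fell (median 1.51). The right limbs of the recovery animals had medians of 0.74 and 0.91 over those of the atrophy animals. The blocked medians were 0.28 and 0.61 (0.44 and 0.86 without animal 372), and 0 genes of either list passed with the block. The summed level of the fibro-adipogenic markers was 671, 627 and 632 rescaled CPM in atrophy and 2519, 1747 and 2557 in recovery, against 580 to 1300 in the right limbs, and 0 of the 13 were at 0 in any of the 6 limbs. All recovery limbs lay above all right limbs, but 5 of the 13 markers, Col1a1 and Col3a1 among them, are also in the matrix list. The 8 others, of which 5 rose and 0 fell (median 1.35), summed to 257, 413 and 355 in atrophy and to 648, 502 and 597 in recovery, and all recovery limbs then lay within the right-limb range of 354 to 880. Without animal 369, 8 matrix genes and 4 fibro-adipogenic markers were called as higher. The part of these markers in the matrix result was not tested.

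Col3a1, the fibrillar collagen III chain, went from 142, 27.5 and 57.6 to 787, 506 and 927 (3.54 ± 0.68, adjusted p = 0.0080) and held. The right limbs stood at 49.1, 30.3 and 25.1 in the atrophy animals and at 188, 169 and 116 in the recovery animals, a difference of 2.17 that passed, so the blocked difference was 1.36. Col1a1 of collagen I rose from 63.0, 11.9 and 35.2 to 358, 240 and 370 (3.36 ± 0.75, adjusted p = 0.014, blocked 0.86) and Col1a2, its partner, by 2.94 ± 0.70 (adjusted p = 0.017, blocked 0.56 but 0.85 without animal 372), and the right limbs passed for both (2.49 and 2.38). Fn1, fibronectin, rose by 1.96 ± 0.50 (adjusted p = 0.023) (blocked 0.12). Col14a1 (3.37 ± 0.62, adjusted p = 0.0072, blocked 1.52), the microfibril gene Fbn1 (2.69 ± 0.46, adjusted p = 0.0057, blocked 1.38), the proteoglycan lumican, Lum (2.42 ± 0.51, adjusted p = 0.011, blocked 1.2), and the fibroblast gene Pi16 (2.03 ± 0.40, adjusted p = 0.0085, blocked 0.96) all held. Postn, periostin of injured matrix, had 58.5, 4.58 and 30.7 against 72.2, 49.2 and 122 (1.81 ± 0.62, adjusted p = 0.064), both groups reaching above the right limbs (4.32 to 13.7). Col1a1 and Col1a2 were lost without 369 (2.72 to 3.88 and 2.32 to 3.51) and Fn1 without 369 or 371 (1.74 to 2.20).

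**Figure D3:**
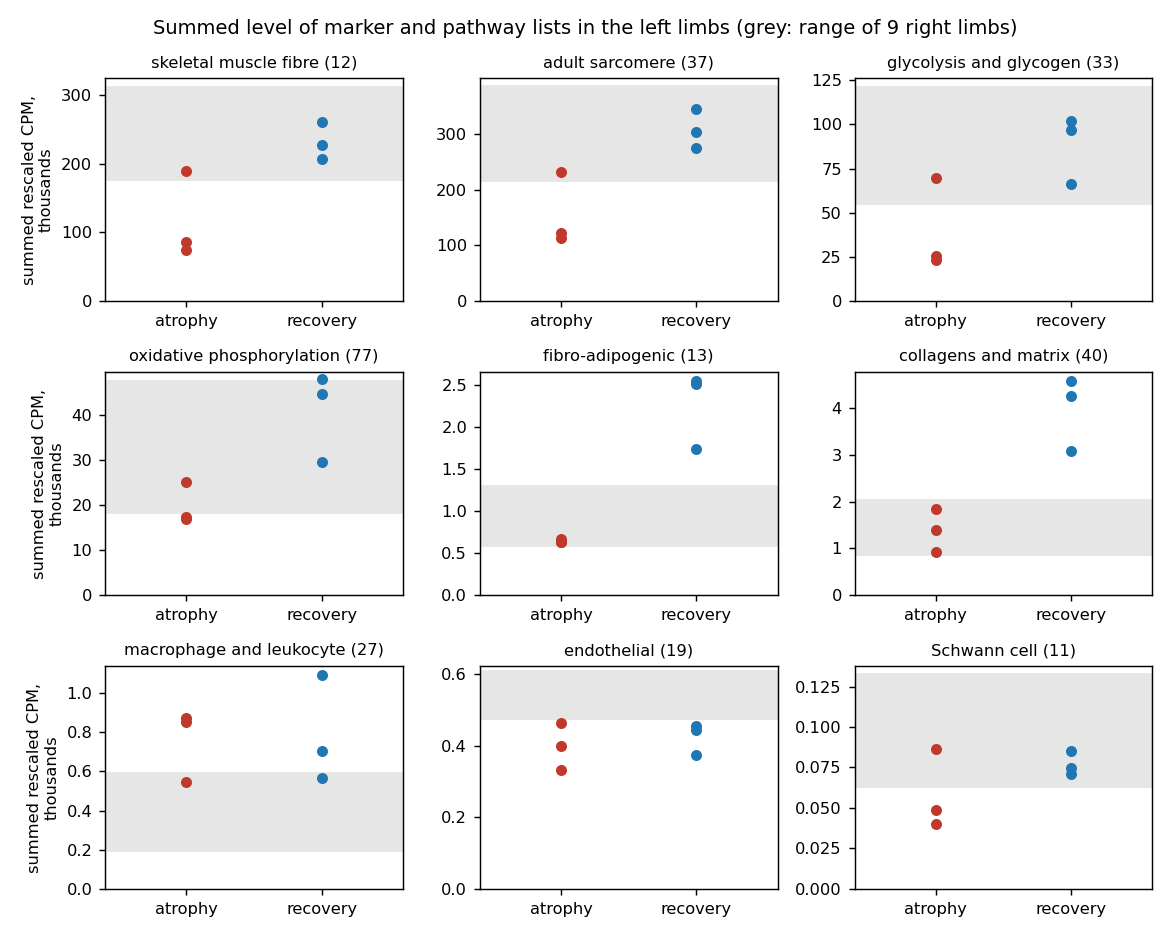
Summed rescaled CPM (axis in units of 1000 CPM) of the tested members (number in brackets) of 9 gene lists in the 3 atrophy (red) and 3 recovery (blue) left limbs, with the range of the 9 right limbs in grey; vertical axes start at 0. Recovery limbs exceed the right-limb range in the fibro-adipogenic and matrix lists, which share 5 genes, while in the sarcomere and fibre lists they lie within it and 2 atrophy limbs lie below it.

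Markers of other cell types are given beside all rows, of which 5.83% were higher and 4.78% lower. Of 27 macrophage and leukocyte genes 2 rose and 0 fell (median 0.63), namely Cd74, the invariant chain of antigen presentation, from 102, 45.2 and 72.0 to 244, 214 and 285 (1.81 ± 0.52, adjusted p = 0.034, blocked 0.49), and Itgam, an integrin of myeloid cells, from at most 1.75 to at least 4.45 (1.5 ± 0.41, adjusted p = 0.029). Their list summed to 851, 544 and 874 in atrophy and to 705, 566 and 1093 in recovery, groups that overlapped, against 195 to 593 in the right limbs, and 0 were higher and 1 lower on CPM as deposited. Against the right limbs, 13 of the 27 were higher in recovery (6.28% of all rows) and 1 in atrophy (4.53% of all rows). Ccnd1, cyclin D1, rose by 2.00 ± 0.52 (adjusted p = 0.023, limma, blocked 0.46 but 0.76 without animal 372) as the single gene of 31 for proliferation that passed (median 0.26), and Adipoq, adiponectin, by 1.82 ± 0.50 (adjusted p = 0.030) as the single adipocyte marker of 11 (0.21). Without animal 362, 5 proliferation genes and 4 macrophage and leukocyte genes were called higher, and without 367 or 369 0 of either list were. Cldn5, the tight junction protein of endothelium, fell by 1.11 ± 0.26 (adjusted p = 0.016, blocked -0.62 but -0.95 without animal 372), the single endothelial gene of 19 (0.06). Of 11 Schwann cell markers 0 passed (0.27), and of 8 red blood cell markers 0 passed (0.25). Itgam was called in none of the 6 omissions (1.23 to 1.64), Cd74 only without 362 (1.5 to 2.09), Ccnd1 was lost without 367, 369 or 370 (1.58 to 2.43), Adipoq without 362, 369, 370 or 372 (1.43 to 2.19) and Cldn5 without 369 or 370 (-1.30 to -0.89).

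Among growth factors and nerve-derived signals the counts were small. Nothing is read from them beside the 10.6% of all rows that passed. Of 28 genes of IGF, myostatin and BMP signalling 3 rose and 1 fell (median 0.09). Igf2, a growth factor of regeneration, went from 29.6, 23.6 and 64.9 to 113, 123 and 124, above every right limb (23.0 to 45.6), and held (1.72 ± 0.28, adjusted p = 0.0046, blocked 1.25), and Fst, follistatin, a myostatin antagonist, fell by 1.36 ± 0.41 (adjusted p = 0.044). Of 26 nerve-derived and Schwann signals 2 rose and 1 fell (0.04), against 1 higher and 4 lower on CPM as deposited. Gap43, of growing axons, was at 0.445, 0.227 and 1.49 in atrophy and at 3.24, 2.01 and 3.12 in recovery (1.19 ± 0.30, adjusted p = 0.023), and Nefm, a neurofilament, at 2.85, 0.947 and 1.59 against 2.90, 5.31 and 11.6 (1.33 ± 0.38, adjusted p = 0.036). Artn, a neurotrophic ligand, lay at 0.314, 1.25 and 1.41 in atrophy and, in recovery, at 0 in 1 limb and at 0.0957 and 0.0960 in the other two, near the value of single reads. Emb, a cell adhesion protein of sprouting, had 194, 24.8 and 220 against 9.77, 6.70 and 45.4 (-2.72 ± 0.90, adjusted p = 0.059). Fst was called only without 367 (-1.72 to -0.96), Gap43 only without 372 (0.98 to 1.48), Artn only without 362 and Nefm only without 362 or 369 (0.89 to 1.73).

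Of 36 genes of ribosome biogenesis 6 fell and 0 rose (median -0.51, -0.38 between the right limbs, -0.13 blocked), and of 77 cytosolic ribosomal proteins 9 fell and 0 rose (-0.35, -0.44 between the right limbs, 0.05 blocked). The 2 lists had 21 and 45 lower on CPM as deposited. Without the right limb of animal 372 the right-limb median of the biogenesis list was -0.16. Without animal 370, 0 genes of either list were called. Polr1a, the large subunit of RNA polymerase I, went from 266, 78.8 and 324 to 26.1, 29.4 and 54.0 (-2.42 ± 0.60, adjusted p = 0.021, blocked -1.07), Bop1, of 60S maturation, fell by 1.16 ± 0.30 (adjusted p = 0.025, blocked -1.33) and Fbl, fibrillarin, by 0.74 ± 0.20 (adjusted p = 0.029, blocked -0.64). Rpl10 fell by 1.21 ± 0.25 (adjusted p = 0.011, blocked -0.52) and Rpl3 by 1.44 ± 0.41 (adjusted p = 0.034, blocked -0.30). Atrophy and recovery limbs did not overlap in these 5 genes, and the right limb of animal 372 held 215 of Polr1a, beyond the next right limb at 77.3. Polr1a was lost without 362, 369 or 370 (-3.05 to -2.03), Bop1 and Fbl without 369, 370 or 372 (-1.30 to -0.92 and -0.82 to -0.61), Rpl3 without 362, 369, 370 or 372 (-1.79 to -1.15) and Rpl10 without 370 (-1.35 to -1.04).

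The remaining lists stand beside the same shares of all rows (5.83% higher, 4.78% lower), and nothing is read from their small counts. Cholesterol synthesis had 3 of 26 lower and 0 higher (median 0.03, and -0.28 on CPM as deposited), and 0 without animal 362, 369, 370 or 372. Among them was Cyp51, lanosterol demethylase (-0.79 ± 0.18, adjusted p = 0.016, blocked -0.54). Fatty acid synthesis had 1 of 25 higher and 0 lower (0.13). Scd, the stearoyl-CoA desaturase, was at 190, 20.6 and 44.1 against 190, 254 and 1034, above all right limbs (3.54 to 45.6) in recovery but overlapping with atrophy (2.69 ± 1.00, adjusted p = 0.086). Of 16 clock genes 0 passed (0.16). Of the 12 general markers of muscle fibres 2 rose and 0 fell (1.13, 0.69 between the right limbs and 0.40 blocked).

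**Figure D4:**
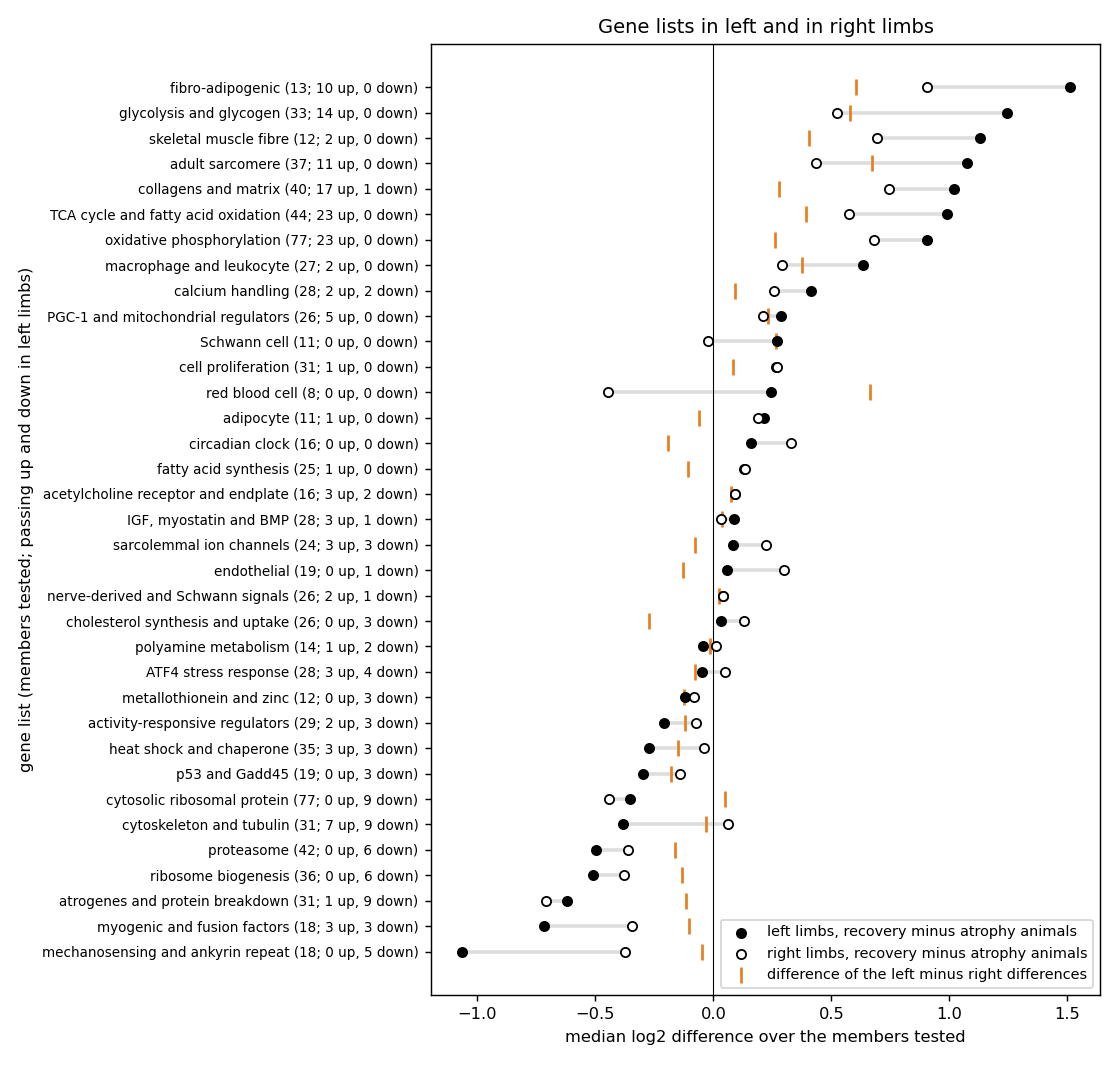
Median log2 difference of the tested members of 35 gene lists: recovery minus atrophy left limbs (filled circles), right limbs of recovery minus right limbs of atrophy animals (open circles) and the difference of the left minus right differences (orange bars), with the number tested and passing beside each name. The left-limb medians run from -1.07 (mechanosensing) to 1.51 (fibro-adipogenic), and in the protein breakdown and ribosomal protein lists the open circle lies further from 0 than the filled one.

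Both limbs of each animal showed genes of 2 kinds. In some, the right limbs of both sets of animals were alike or differed the opposite way, and the blocked difference was about as large as the unblocked or, in Tuba8, larger: Tuba8, Mical2, Tuba4a, Tubb4b, Myh8, Kcna7, Slc3a2, Cryab and Chrnb1. In others the untreated right limbs differed in the same direction, and the blocked difference was a small part of the unblocked: Ctsl, Sat1, Fn1, Col1a1 and Rpl3. For Fbxo32 and Chac1 the small blocked differences (-0.22 and -0.19) rested on animal 372, without which they were -0.80 and -0.68, and that of Fn1 moved from 0.12 to 0.40. For 15 of the genes named, the left minus right difference had 1 sign in all 3 atrophy animals and the opposite sign in all 3 recovery animals, a pattern present in 2.96% of all rows tested (416) and in 10.7% of the passing rows (160). The genes named were largely chosen for their difference between the left limbs, so nothing is read from their count. Chrnb1, for example, was higher in the left limb by 0.19 to 1.05 in atrophy animals and lower by 0.12 in each recovery animal. These kinds were set after the values were seen and were not tested.

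**Figure D5:**
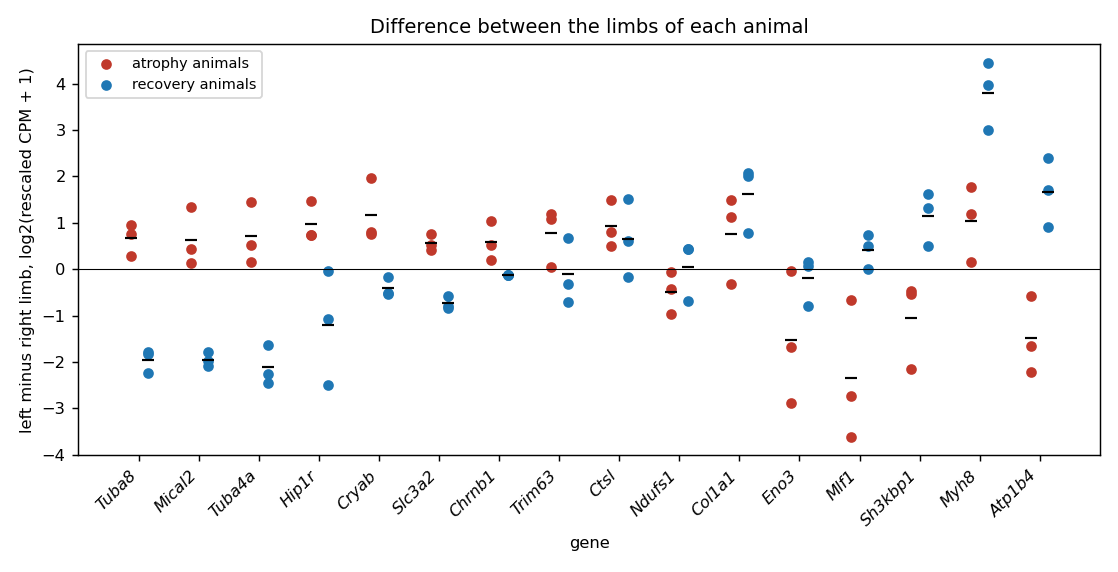
Left minus right limb difference on the log2(rescaled CPM + 1) scale for 16 genes, 1 point per animal (red, 3 atrophy animals; blue, 3 recovery animals) with the mean as a black bar. For Tuba8, Mical2 and Tuba4a all red points lie above 0 and all blue points below, for Atp1b4 and Sh3kbp1 the reverse, and for Ctsl and Trim63 the groups overlap.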

How the data were processed

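RNA of the TA of both limbs of 12 rats was sequenced. The authors deposited one table of CPM, in which each column sums to 1000000; their notes name bowtie2 2.2.5, STAR, Partek, DESeq2 and the build rn7, and the counting step and annotation were not given in the sources used here. Of 27 value columns, 24 carry a sample and 3 were not used. From 14271 rows, 28 exact duplicates were dropped. Only 87.5 to 88.8% of low values were whole multiples of a step (tolerance 0.02), so reads were not recovered and no count test was run. Values were rescaled by the median of ratios over 18 limbs and tested as log2(value + 1) with limma 3.58.1 (R 4.3.3, intensity trend) in a fit of 4 groups, without a block, over 14031 rows above 0 in at least 3 limbs. The scripts were tested on simulated data. Limbs of 1 animal share a number. The correlation of their deviations averaged 0.116 over 9 animals, with 3 negative. The genes named were drawn from the 12 largest rises and falls among passing rows whose limbs did not overlap and whose mean was at least 10 CPM in a group, and, in each list, from key members and up to 6 further passing members of largest difference. The members and lists were chosen with earlier results of these data known. Alternatives covered scaling, pseudocount, filter, block and the omission of animals. Sequences are of RefSeq (GRCr8), where 10411 of 13247 tested symbols had a promoter. Unblocked p-values rest on the spread between limbs within the 4 groups, with both limbs of an animal counted as separate (14 residual degrees of freedom from 9 animals). Blocked p-values rest on the spread of the left minus right differences between animals (6 residual degrees of freedom). Some items are not reported here.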

Additional observations from a re-analysis of the deposited data

Results flagged for a closer look

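In the 9 right limbs, 8 of the 115 genes tested had 1 limb far from the others, each time that of animal 372. The measure was Dixon's ratio, the gap to the nearest limb over the whole range, on the log2(rescaled CPM + 1) scale. Chance alone marks about 1 in 20 groups. The ratio was 0.628 for Trim63, 0.613 for Psmd8, 0.579 for Slc30a2, 0.548 for Mlf1, 0.54 for Psma7, 0.527 for Polr1a, 0.502 for Sh3kbp1 and 0.501 for Hip1r. That limb was the highest in all but Mlf1, at 85.9 rescaled CPM against a median of 321, and Sh3kbp1, at 11.4 against 56.8.

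The left minus right difference itself differed between recovery and atrophy animals for Tuba8 (-2.62) and Mical2 (-2.59), each with an adjusted p of 0.033 in limma. Of the 115 genes, which were largely chosen for their difference between the left limbs, 15, these included, had opposite signs of that difference in all 3 atrophy and all 3 recovery animals, as did 2.96% of all rows and 10.7% of the passing rows. Of these 15, Tuba8 and Mical2 passed in that fit and the others did not.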

How the results depend on the processing

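The count of 818 higher and 671 lower rows stayed within 1.5 times under the other scalings, pseudocounts, filters, trend and fold settings run, except on CPM as deposited (469 and 2036), with only the 6 limbs (453 and 385) and with a random block (lower 444). With the replicate block, 0 were higher and 2 lower (1122 at an unadjusted p under 0.05, limma), without animal 372 also 0 and 1, and without 367 18 and 4, and CPM without 367 gave 530 and 3174. Leaving out each animal gave 149 to 966 higher and 86 to 798 lower, lowest without 369. For atrophy against right limbs (636 higher, 724 lower), CPM gave 2844 and 327, the block 0 and 0 (2156 unadjusted), and omission of the right limb of 372 gave 991 higher. For recovery against right limbs (881 and 817), CPM gave 467 lower and the block 49 and 21. Directions turned for Chrnd with the block (0.069), Myh3 (-0.025 without 367, up to 2.15 over the omissions), Myh1 with quantile normalization (-0.075) and Myh2 with it (-0.45), with the block (-0.52) and over the omissions (-0.23 to 0.90). With the block and without animal 372, Mymk (0.49) and Chrna1 (0.05) turned as well. The cause was not tested. Depth, inferred only, limits genes near single reads, such as Artn.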
